A study of Mus musculus with 10 samples.

Results

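Oxidative phosphorylation is carried out by 5 protein complexes of the inner mitochondrial membrane, and the genes of their subunits were followed here in brain endothelial cells whose mucin-domain glycoproteins had been cut by the bacterial mucinase StcE. The members were the genes whose symbol marks them as a subunit of complex I (*Nduf* and *mt-Nd* genes), complex II (*Sdh*), complex III (*Uqcr*, *Cyc1*, *mt-Cytb*), complex IV (*Cox4* to *Cox8*, *mt-Co*) or complex V, the ATP synthase (*Atp5*, *mt-Atp*), without names that mark a pseudogene. They were 98 of the 27024 genes with a name in the expression table, of which 85 are nuclear and 13 lie on the mitochondrial genome. The symbols also took in *Cox7a2l* and *Atp5s*, which are factors associated with the complexes rather than subunits, and *Cox6c2*, which is annotated as a processed pseudogene. *Ndufa4* was counted with complex IV, where its protein is found.

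Complexes I and II feed electrons from NADH and succinate to coenzyme Q, complex III passes them to cytochrome c, and complex IV hands them to oxygen. Complexes I, III and IV pump protons across the membrane, and complex V uses the returning flow to make ATP. All of these but complex II hold subunits from both genomes, so nuclear and mitochondrial transcripts have to be supplied together, although the circular mitochondrial genome is transcribed by its own polymerase from a few promoters as long precursor RNAs. Endothelial cells are known to rely largely on glycolysis for ATP, with mitochondria also serving signalling and redox balance.

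bEnd.3, a wild-type (WT) mouse brain endothelial cell line, was grown in serum-containing medium. It was given 5 nM StcE or saline for 16 h before bulk RNA sequencing. There were 5 saline samples (replicates 1, 2, 3, 4 and 5) and 5 StcE samples (replicates 1, 2, 3, 5 and 6). All of them were of 1 cell line, and the control was saline rather than an inactive enzyme. The labels do not say whether replicates were separate cultures, so p-values measure the spread between these samples, which may be technical. Recovered depth was 23159140 to 30648371 fragments in saline samples and 23124727 to 35032557 in StcE samples. All 12 endothelial markers had a mean of at least 1 FPKM (fragments per kilobase of exon, scaled to depth), with a sum of 2068 to 2217 FPKM in saline and 2005 to 2091 FPKM in StcE samples. *Gfap* and *Aqp4* of astrocytes, *Tmem119* and *Csf1r* of microglia, *Rbfox3* and *Snap25* of neurons and *Mbp* of oligodendrocytes were each below 0.1 FPKM. Of 5 neuron markers 1 reached 1 FPKM, *Tubb3* at 2.53 FPKM, and *Mog* of oligodendrocytes had 0.138 FPKM. So did 1 of 6 pericyte and smooth muscle markers, *Acta2* at 3.14 FPKM. Among 4 fibroblast markers, 1 did, *Pdgfra* at 1.24 FPKM.

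Few of the subunit genes differed between StcE and saline samples. Genes were tested with limma on log2(FPKM + 1) where their mean was at least 1 FPKM, and a gene was called at a Benjamini-Hochberg adjusted p below 0.05. Of all 11062 genes tested, 1320 (11.9%) were called. Of the 98 members 90 were tested and 1 of them (1.11%) was called, the mitochondrially encoded ATP synthase subunit *mt-Atp6*, which was higher after StcE, as were 5.52% of all genes. None of the 78 tested nuclear members was called, where 6.41% of all genes were called lower, and 6 of them had an unadjusted limma p below 0.05. For all members this count was 9 of 90, and for all genes it was 27.8%. The median log2 fold change was -0.01 for the nuclear members, 0.07 for the 12 tested mitochondrial members and -6.6e-04 for all genes. The mitochondrial median was 0.03 when trends over length and GC content were removed, and the nuclear one was -0.03 without StcE replicate 1 and 0.01 without StcE replicate 6. In bulk samples a change in RNA per cell cannot be told apart from a change in the mixture of cells.

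The intervals show how much of a change these samples leave room for. The 95% interval of the log2 fold change lay within a 1.2-fold change in either direction for 72 of the 78 nuclear members (92.3%), against 83.4% of all genes tested. The tested nuclear members ranged from -0.19 (*Atp5k*) to 0.24 (*Ndufa12*) in log2 fold change, with 46 estimates below and 32 above 0. The 6 nuclear members whose interval reached 1.2-fold were *Uqcrb*, *Atp5k*, *Ndufa3*, *Ndufa12*, *Ndufs5* and *Atp5s*. Among mitochondrial members 7 of 12 lay within 1.2-fold, and the other 5 are the low-level genes described next to their nuclear copies.

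**Figure D1:**
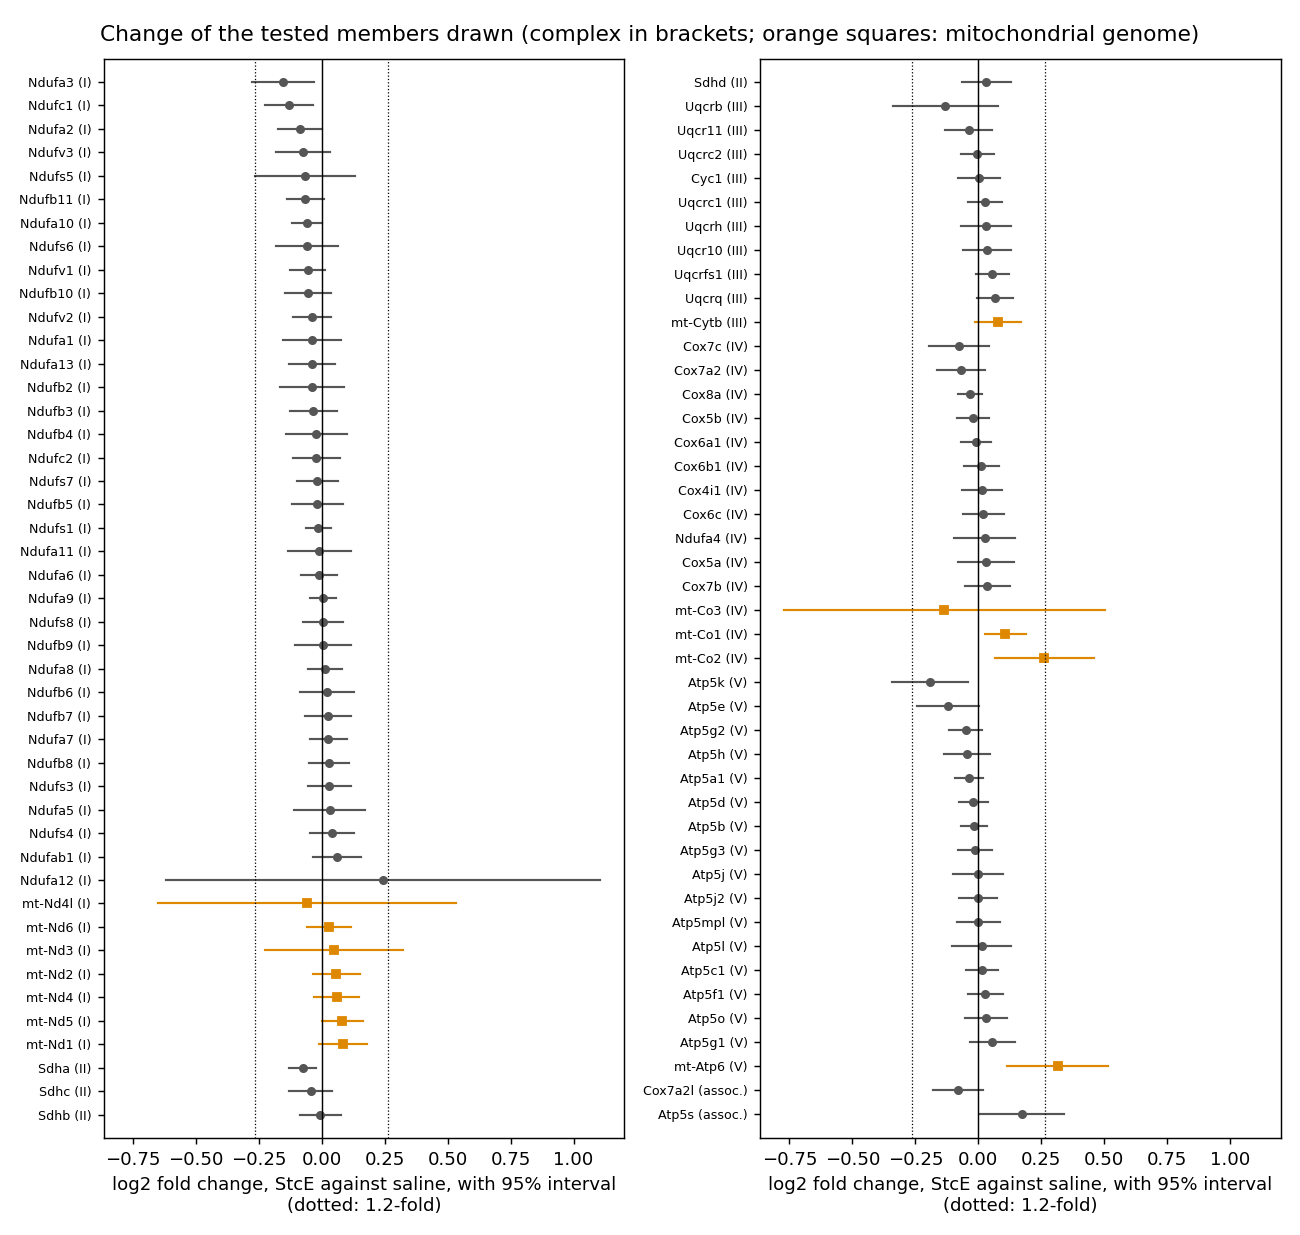
Log2 fold change of 89 of the 90 tested members, StcE against saline on log2(FPKM + 1) (x axis), with points for the estimate, bars for the 95% interval from limma (5 samples per group) and dotted lines at a 1.2-fold change. The bars of 78 members stay between the dotted lines, and the widest belong to *Ndufa12*, *mt-Co3* and *mt-Nd4l*.

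Levels per exon length placed the members far apart. The tested nuclear members ranged from 1.5 FPKM (*Ndufb2*) to 443.3 FPKM (*Atp5b*), with a median of 41.1 FPKM. The medians of the nuclear members were 30.04 FPKM for complex I, 47.6 for complex II, 62.0 for complex III, 57.1 for complex IV and 44.97 for complex V. Genes within a complex lay further apart than these medians. The 8 members below a mean of 1 FPKM were *mt-Atp8*, *Cox6c2* and the tissue-specific subunit forms *Cox7a1*, *Cox4i2*, *Cox6b2*, *Cox8b*, *Cox6a2* and *Cox7b2*.

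**Figure D2:**
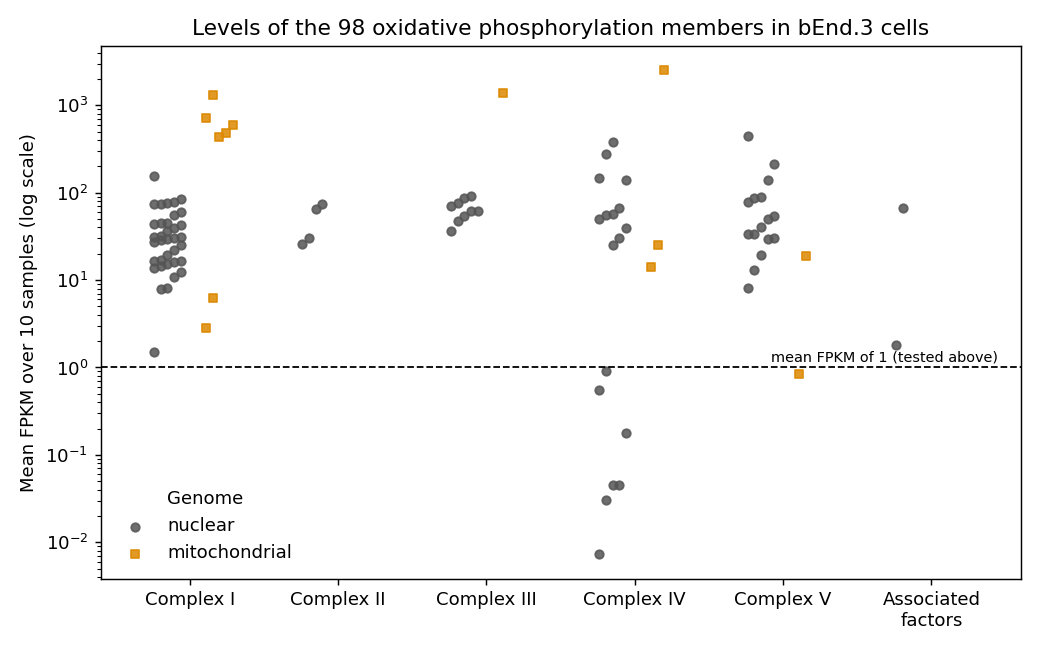
Mean FPKM over the 10 samples (y axis, log scale) for each of the 98 members, 1 point per gene, by complex (x axis) and genome (grey circles nuclear, orange squares mitochondrial). The dashed line is the mean of 1 FPKM above which genes were tested, and 8 members lie under it.

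In complex I, the NADH dehydrogenase, 43 of 43 members were tested and 0 were called. *Ndufs1*, which carries iron-sulfur clusters of the electron path, had 13.65, 13.83, 13.45, 13.81 and 13.81 FPKM in saline replicates 1 to 5 and 13.40, 13.97, 13.21, 13.85 and 13.43 FPKM in StcE replicates 1, 2, 3, 5 and 6. The groups overlapped, and the log2 fold change was -0.01 ± 0.02 (SE) with a 95% interval of -0.06 to 0.04. *Ndufv1*, which binds the flavin that accepts electrons from NADH, had 31.9 ± 0.82 FPKM (SD, n = 5) in saline and 30.7 FPKM in StcE samples, with an interval of -0.13 to 0.01. The most abundant nuclear subunit of complex I was *Ndufa8*, at 155.2 FPKM in saline and 156.5 FPKM in StcE samples. The median log2 fold change of the 36 nuclear members was -0.02.

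Small accessory subunits had the largest negative estimates in complex I. *Ndufa3* had 28.37 to 34.80 FPKM in saline (median 29.99) and 24.95 to 28.62 FPKM in StcE samples (median 28.3), a log2 fold change of -0.15 with a limma adjusted p of 0.10. *Ndufc1* had 15.98 to 18.86 FPKM in saline and 15.03 to 16.69 FPKM in StcE samples, a log2 fold change of -0.13 with an adjusted p of 0.0791. Both pairs of groups overlapped and neither gene passed the threshold.

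Complex II, succinate dehydrogenase, is the one complex with nuclear subunits alone, and 4 of 4 members were tested with 0 called. *Sdha*, the flavin-bearing subunit that oxidises succinate in the citric acid cycle, had 66.1, 68.8, 64.9, 68.7 and 64.3 FPKM in saline replicates 1 to 5. In StcE replicates 1, 2, 3, 5 and 6 it had 62.4, 63.8, 62.5, 63.2 and 63.5 FPKM. Every StcE sample was below every saline sample, and *Sdha* was the sole nuclear member whose groups did not overlap, where 10.7% of all tested genes did not and 5.80% were without overlap and lower. The log2 fold change was -0.08 ± 0.02 (SE), with a 95% interval of -0.13 to -0.02, a limma adjusted p of 0.0618 and an exact permutation p of 0.00794, the smallest that 5 against 5 samples allow. Its iron-sulfur partner *Sdhb* had 25.7 FPKM in saline and 25.6 FPKM in StcE samples. The membrane anchors *Sdhc* and *Sdhd* had log2 fold changes of -0.04 and 0.03. Estimates of 3 of the 4 subunits lay below 0, and the intervals of *Sdhb*, *Sdhc* and *Sdhd* included 0.

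In complex III 10 of 10 members were tested and 0 were called, with a median log2 fold change of 0.03. *Cyc1*, the cytochrome that passes electrons to cytochrome c, had 61.1 ± 3.34 FPKM (SD, n = 5) in saline and 61.2 FPKM in StcE samples. *Uqcrfs1*, the Rieske iron-sulfur protein, had 69.3 to 78.3 FPKM in saline and 75.8 to 79.2 FPKM in StcE samples, a log2 fold change of 0.06 with an interval of -0.01 to 0.12. Estimates leaned upward for 7 of the 10 members, and none of the 10 pairs of groups was free of overlap.

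In complex IV, cytochrome c oxidase, 14 of 21 members were tested and 0 were called. All 11 tested nuclear members had intervals within 1.2-fold, and their median log2 fold change was 0.01. *Cox6a1*, the most abundant of them, had 385.3, 399.4, 384.5, 377.1 and 379.8 FPKM in saline replicates 1 to 5 and 398.6, 383.5, 386.6, 382.0 and 362.3 FPKM in StcE replicates 1, 2, 3, 5 and 6. The groups covered much the same range, and the interval of the log2 fold change was -0.07 to 0.05. *Ndufa4* had 39.1 FPKM in saline and 39.8 FPKM in StcE samples.

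Several nuclear subunits of complex IV exist as a widely expressed form and a form found mainly in heart, muscle, lung or testis. The bEnd.3 samples used the widely expressed forms in both groups. Of the summed FPKM of each pair, *Cox4i1* made up 99.9% in saline and 99.9% in StcE samples, *Cox7a2* 99.2% and 99.1%, and *Cox8a* 100% and 99.97%. *Cox4i2*, the form linked to low oxygen, had 0.153 ± 0.087 FPKM (SD, n = 5) in saline and 0.202 FPKM in StcE samples. *Cox6a1* and *Cox6b1* each made up more than 99.9% of their pair in both groups.

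In complex V 17 of 18 members were tested, and the 1 called is mitochondrial. *Atp5b*, the catalytic beta subunit, was the nuclear member with the highest level, at 431.8, 450.0, 445.4, 445.8 and 456.3 FPKM in saline replicates 1 to 5. It had 454.2, 442.9, 442.2, 442.3 and 422.5 FPKM in StcE replicates 1, 2, 3, 5 and 6. The groups overlapped and the interval of its log2 fold change was -0.07 to 0.04. *Atp5a1*, the alpha subunit, had 218.3 ± 5.90 FPKM (SD, n = 5) in saline and 212.7 FPKM in StcE samples, with an interval of -0.09 to 0.02.

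The c ring of the ATP synthase is encoded by 3 genes whose mature proteins are the same. *Atp5g1* made up 10.2% of their summed FPKM in saline and 10.8% in StcE samples, *Atp5g2* 42.9% and 42.0%, and *Atp5g3* 46.9% and 47.2%. These shares depend on the annotated exon lengths, which are 4912, 1675 and 2181 bases in that order. A processed pseudogene that copies part of *Atp5g1*, *Gm10039*, was listed at 69.5 FPKM beside 19.3 FPKM for *Atp5g1*. The shares are therefore uncertain as a measure of how much each gene is used. The subunit with the largest negative estimate of any member was *Atp5k*, which helps hold dimers of the synthase together. It had 33.3, 44.2, 34.1, 35.8 and 34.5 FPKM in saline replicates 1 to 5 and 30.9, 31.5, 31.8, 29.5 and 34.4 FPKM in StcE replicates 1, 2, 3, 5 and 6. The groups overlapped, and the log2 fold change of -0.19 had an interval of -0.34 to -0.04 and a limma adjusted p of 0.0954. Saline replicate 2, at 44.2 FPKM, lay above the other saline samples, at 33.3 to 35.8 FPKM. The estimate rests in part on that sample.

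The mitochondrial members fell into 2 ranges of level that do not follow the complexes. On 1 side stood *mt-Co1*, *mt-Cytb*, *mt-Nd1*, *mt-Nd2*, *mt-Nd5*, *mt-Nd4* and *mt-Nd6*, with means of 430.1 to 2520 FPKM. On the other stood *mt-Co2*, *mt-Atp6*, *mt-Co3*, *mt-Nd4l* and *mt-Nd3*, with means of 2.85 to 25.2 FPKM, and *mt-Atp8*, with 0.88 FPKM in saline and 0.79 FPKM in StcE samples. The low genes are neighbours on the mitochondrial genome, from *mt-Co2* at chrM:7013-7696 to *mt-Nd4l* at chrM:9877-10173 (GRCm38). A stretch of chromosome 1, chr1:24611535-24616197, carries 7 annotated unprocessed pseudogenes that copy the genes from the end of *mt-Co1* to the first part of *mt-Nd4*, at 99.7% to 100% identity. These copies covered at least 90% of each of *mt-Co2*, *mt-Atp6*, *mt-Co3*, *mt-Nd4l* and *mt-Nd3*, but 63.6% of *mt-Nd4* and 31.3% of *mt-Co1*. *mt-Atp8* lies between *mt-Co2* and *mt-Atp6* on the mitochondrial genome and has no annotated copy of its own. The search covered annotated transcripts alone, so an unannotated copy of *mt-Atp8* in that stretch of chromosome 1 would be missed.

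Stretches of *mt-Co2* and *mt-Co1* are shown with their nuclear copies because a read from one can match the other base for base. Each line gives bases 251 to 400 of the gene from the GRCm38 genome, read 5′ to 3′ along the gene, and capitals mark bases that differ from the mitochondrial gene. The windows are chrM:7263-7412 (plus strand), chr1:24615166-24615315 and chr2:22587563-22587712 (minus strand) for *mt-Co2*, and chrM:5578-5727 (plus strand) and chr2:22589248-22589397 (minus strand) for *mt-Co1*.
mt-Co2: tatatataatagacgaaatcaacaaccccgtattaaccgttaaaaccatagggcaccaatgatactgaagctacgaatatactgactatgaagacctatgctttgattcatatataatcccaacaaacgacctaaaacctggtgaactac
Gm28661: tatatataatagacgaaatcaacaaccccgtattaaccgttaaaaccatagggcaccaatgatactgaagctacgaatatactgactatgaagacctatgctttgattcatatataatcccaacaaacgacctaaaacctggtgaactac
Gm13341: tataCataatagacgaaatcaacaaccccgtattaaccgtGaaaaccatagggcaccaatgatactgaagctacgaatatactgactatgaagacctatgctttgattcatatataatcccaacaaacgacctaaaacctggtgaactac
mt-Co1: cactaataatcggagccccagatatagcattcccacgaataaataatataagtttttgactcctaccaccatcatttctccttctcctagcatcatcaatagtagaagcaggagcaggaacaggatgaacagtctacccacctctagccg
Gm13340: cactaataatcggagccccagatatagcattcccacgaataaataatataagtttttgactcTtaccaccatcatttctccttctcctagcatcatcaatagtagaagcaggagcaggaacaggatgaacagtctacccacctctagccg

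The copy of *mt-Co2* on chromosome 1 (*Gm28661*) has 0 differences in this window and 0 over all 681 aligned bases. The copy of *mt-Atp6* there (*Gm10925*) has 0 differences over 678 aligned bases. The full-length copy of *mt-Co1* on chromosome 2 (*Gm13340*) differs at 1 base of the window and at 37 of 1545 aligned bases, and it had a mean of 0.966 FPKM, against 2520 FPKM for *mt-Co1*. How the counting treated fragments that match more than 1 place is not given in the sources used here. The values of the 5 genes with a full-length copy at chromosome 1 are therefore uncertain. The same doubt covers the parts of *mt-Nd4* (63.6%) and *mt-Co1* (31.3%) that are copied there. The copies on chromosome 1 had means of 5.96 to 23.2 FPKM. *Gm28661* had 16.7 FPKM beside 25.2 FPKM for *mt-Co2*, while *Gm28438* had 23.2 FPKM beside 2.85 FPKM for *mt-Nd3*. The partial copies lay far below their genes, with 5.96 FPKM for *Gm28439* beside 478.8 FPKM for *mt-Nd4* and 9.33 FPKM for *Gm29216* beside 2520 FPKM for *mt-Co1*.

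**Figure D3:**
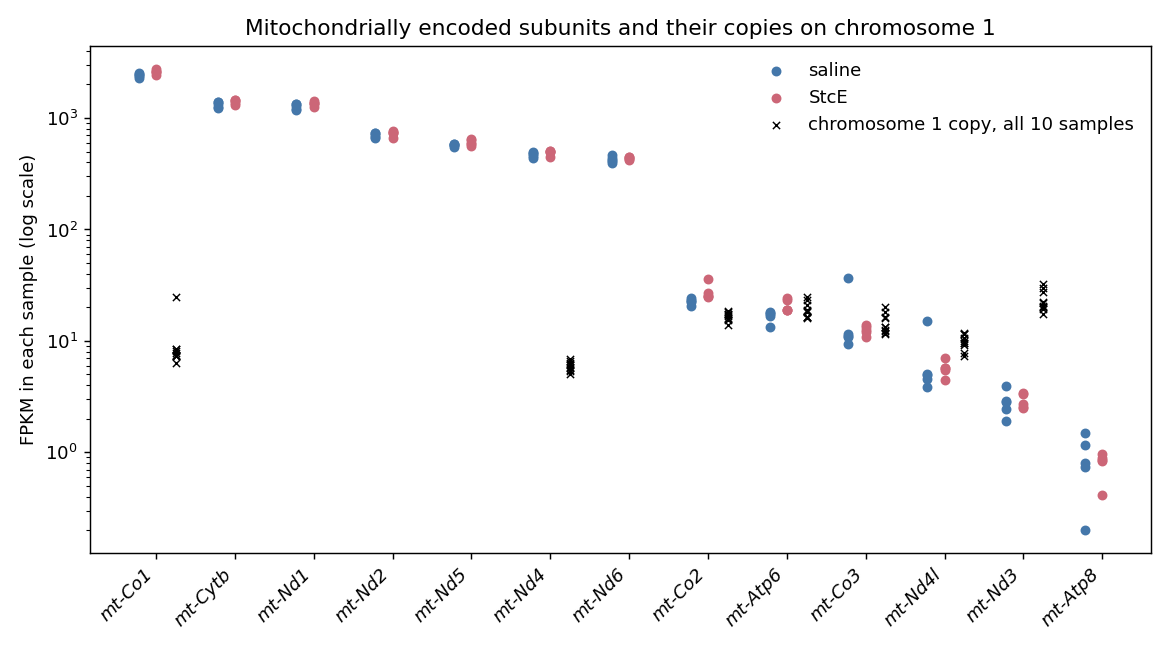
FPKM of the 13 mitochondrial members in each sample (y axis, log scale), with blue points for 5 saline samples, red points for 5 StcE samples and black crosses for the pseudogene copy on chromosome 1 in all 10 samples where one is annotated. The 7 genes from *mt-Co1* to *mt-Nd6* sit above 398 FPKM in every sample, and the 6 others reach 37.0 FPKM at most.

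In the 7 mitochondrial members without a full-length copy of at least 99% identity, estimates lay slightly above 0 and none was called. *mt-Co1*, the catalytic subunit of complex IV and the member with the highest level, had 2297, 2467, 2360, 2554 and 2457 FPKM in saline replicates 1 to 5. In StcE replicates 1, 2, 3, 5 and 6 it had 2757, 2597, 2605, 2459 and 2650 FPKM. The groups overlapped, and the log2 fold change of 0.11 had a 95% interval of 0.03 to 0.19, a limma adjusted p of 0.0856 and an exact permutation p of 0.0238. *mt-Cytb*, the cytochrome b of complex III, had 1326 ± 72.0 FPKM (SD, n = 5) in saline and 1399 FPKM in StcE samples, a log2 fold change of 0.08 with an interval of -0.01 to 0.17. The complex I subunits *mt-Nd1*, *mt-Nd2*, *mt-Nd4*, *mt-Nd5* and *mt-Nd6* had log2 fold changes of 0.08, 0.06, 0.06, 0.08 and 0.03, and each interval included 0.

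These 7 genes followed a similar order of samples. StcE replicate 1 was the highest of the 10 samples for 5 of the 7, and saline replicate 1 was the lowest for 6. The share of all recovered fragments that fell on mitochondrial members was 0.895% ± 0.039 (SD, n = 5) in saline and 0.956% ± 0.046 in StcE samples. The groups overlapped, at 0.842% to 0.932% in saline and 0.888% to 1.016% in StcE samples. Nearly all of these fragments fell on the 7 abundant genes, with 350 to 859 per sample on *mt-Co2* beside 90488 to 139550 on *mt-Co1*. For nuclear members the share was 0.870% ± 0.025 in saline and 0.868% ± 0.029 in StcE samples. The libraries were made from polyadenylated RNA with a kit that keeps the strand, and whether counting used the strand is not given in the sources used here. *mt-Nd6*, which lies on the opposite strand to the other mitochondrial members, can therefore not be told apart from antisense RNA.

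*mt-Atp6*, the proton channel subunit of complex V and the 1 member called, had 17.3, 13.3, 18.1, 16.6 and 17.9 FPKM in saline replicates 1 to 5. In StcE replicates 1, 2, 3, 5 and 6 it had 19.0, 24.3, 19.0, 19.1 and 23.4 FPKM. The groups did not overlap, with the highest saline and the lowest StcE sample less than 1 FPKM apart. The mean was 16.6 ± 1.94 FPKM (SD, n = 5) in saline and 20.9 ± 2.66 FPKM in StcE samples, a log2 fold change of 0.32 ± 0.09 (SE) with an interval of 0.11 to 0.52, a limma adjusted p of 0.0457 and an exact permutation p of 0.00794. Between 230 and 457 fragments per sample lay behind these values. The call was lost when any 1 sample was left out, with adjusted p from 0.0519 to 0.0895.

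The identical copy of *mt-Atp6* on chromosome 1 was not called, with 18.5 ± 3.76 FPKM (SD, n = 5) in saline and 19.5 ± 2.72 FPKM in StcE samples and an adjusted p of 0.693. With the FPKM of gene and copy added in each sample, a sum chosen after the values were seen, the saline samples ranged from 29.8 to 41.5 FPKM and the StcE samples from 35.5 to 43.0 FPKM. The groups then overlapped, and the exact permutation p was 0.0556. The part of the copy in the call was not tested further.

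*mt-Co2*, which takes electrons from cytochrome c, also had groups that did not overlap, as 4.85% of all tested genes did with StcE higher. It had 20.6, 23.0, 24.3, 22.3 and 23.5 FPKM in saline replicates 1 to 5 and 26.8, 25.0, 36.2, 25.1 and 25.4 FPKM in StcE replicates 1, 2, 3, 5 and 6. The log2 fold change was 0.26 with an interval of 0.07 to 0.46 and a limma adjusted p of 0.0825. With its copy added the groups overlapped, at 36.1 to 42.8 FPKM in saline and 42.2 to 54.3 FPKM in StcE samples. The StcE mean of this sum was still 1.17 times the saline mean, with an exact permutation p of 0.0238. For the sums of *mt-Nd3*, *mt-Co3* and *mt-Nd4l* with their copies, these ratios were 1.26, 0.875 and 1.04. Their exact permutation p were 0.0635, 0.611 and 0.651, and the groups overlapped in each. *mt-Co3* and *mt-Nd4l* each had 1 saline sample far above the rest, replicate 1, at 37.0 FPKM against 9.41 to 11.4 FPKM for *mt-Co3* and 15.1 FPKM against 3.85 to 5.06 FPKM for *mt-Nd4l*. Their intervals, -0.77 to 0.50 and -0.65 to 0.53, leave their response to StcE undetermined. Without saline replicate 1 their log2 fold changes turned from -0.13 and -0.06 to 0.21 and 0.25, with limma adjusted p of 0.0995 and 0.179. *mt-Nd3* had 1.89 to 3.97 FPKM in saline and 2.49 to 3.43 FPKM in StcE samples, from 16 to 35 fragments per sample.

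Copies of nuclear members were for the most part of another kind, processed pseudogenes made from spliced transcripts. For 24 of the 85 nuclear members, another annotated gene held a copy, taken as 150 or more bases that matched at 95% or better. For 6 of the 23 tested members among them a copy was listed at a higher FPKM than the member. The untested 1 was *Cox6c2*, itself a pseudogene, whose copy in this search is the member *Cox6c* (25.2 FPKM). *Ndufa12* of complex I had a mean of 15.9 FPKM, and its copy *Gm15920* on chromosome 5, with 99.5% identity over 402 bases, had 150 FPKM. *Ndufa12* was also the nuclear member with the widest interval, -0.62 to 1.11. It had 8.30, 10.4, 24.4, 9.64 and 16.6 FPKM in saline replicates 1 to 5 and 30.5, 9.73, 30.5, 10.6 and 8.51 FPKM in StcE replicates 1, 2, 3, 5 and 6, so that high and low samples occurred in both groups. In the 3 samples where *Ndufa12* exceeded 24 FPKM (saline replicate 3, StcE replicates 1 and 3), *Gm15920* had 132.2, 127.1 and 129.98 FPKM, its 3 lowest values. The 5 other tested members with a copy above them were *Ndufs5*, *Atp5l*, *Atp5g1*, *Ndufab1* and *Cox7a2l*, and levels of these 6 members are uncertain. Without any member that has a copy, 55 tested nuclear members remained, with a median log2 fold change of -0.01, 0 calls and 53 intervals within 1.2-fold.

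Samples within a group differed by more than the group medians of the nuclear members. The median deviation of the nuclear members from their mean over all samples was 0.06 on the log2 scale in StcE replicate 1 and in saline replicate 2, and 0.04 in saline replicate 5. It was lowest in StcE replicate 6, at -0.06. StcE replicate 1 was the highest of the 10 samples for 25 of the 78 members, saline replicate 2 for 24 and saline replicate 5 for 17, and StcE replicate 6 was the lowest for 27. The same counts were not made over all tested genes. The summed FPKM of tested nuclear genes, relative to its geometric mean over samples, was 0.982 in StcE replicate 6. It was 1.009 in StcE replicate 1, 1.008 in saline replicate 5 and 0.998 in saline replicate 2. The part of such scale in the counts was not tested. The nuclear members of every complex had a median above 0 in StcE replicate 1 and below 0 in StcE replicate 6. They parted elsewhere, as in saline replicate 2, where complex III was at -0.01 and the other complexes at 0.04 to 0.09. The 7 abundant mitochondrial members were lowest in saline replicate 1 and at 0.07 in StcE replicate 6. The tested nuclear members are short, with a median exon length of 1737 bases against 4170.5 bases for all tested genes. The part of RNA quality in these differences between samples was not tested.

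**Figure D4:**
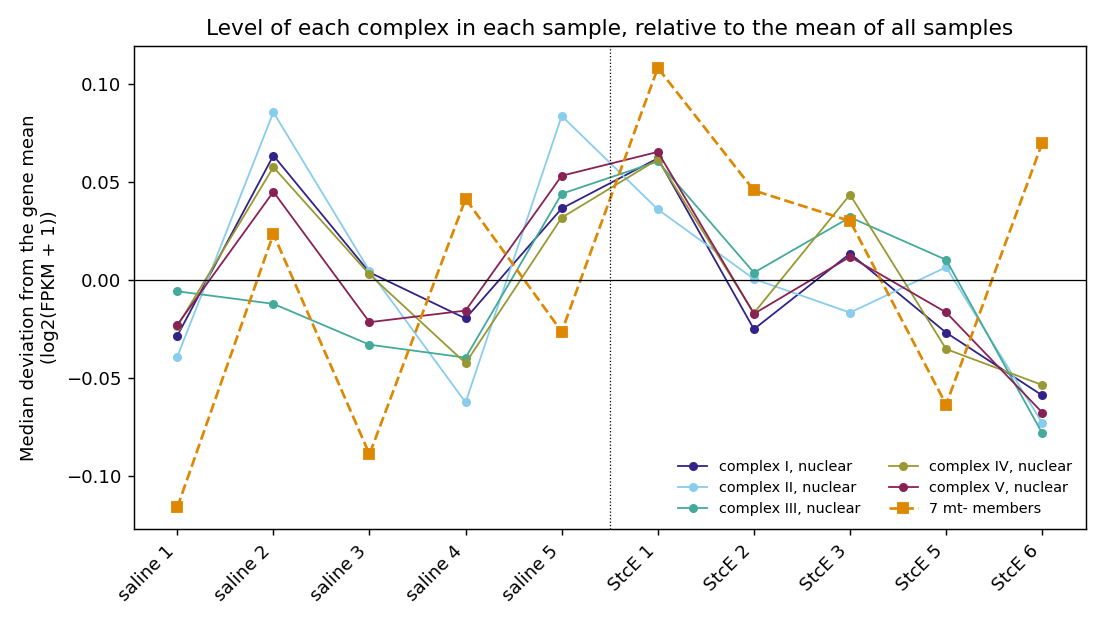
Median deviation of log2(FPKM + 1) from each gene's mean over the 10 samples (y axis), for the tested nuclear members of each complex (circles) and for the 7 mitochondrial members without a full-length copy (orange squares), by sample (x axis; lines guide the eye, since replicates have no order). Nuclear members of all 5 complexes are low in StcE replicate 6 and high in StcE replicate 1, and neither group lies above the other as a whole.

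The promoters of nuclear members were also read for motifs, and no link of the motifs to the differences between samples was tested. Of the 78 tested nuclear members 65 were matched to the RefSeq promoter table (GRCm38.p6), which spans 250 bases before to 50 after each start. The motif of NRF1, a factor known to act at respiratory genes, was searched on both strands as GCGC, then any base, then TGCGC, and was found in 17 of the 65 (26.2%), against 12.8% of 8013 tested genes with a promoter and 5.19% of all genes in the table. The ETS motif CCGGAAG, of the kind bound by the respiratory factor GABPA, was found in 16 (24.6%), against 22.3% of tested genes. CCAAT was found in 27 (41.5%), against 43.2% of tested genes. A match is a run of letters and not a site of binding. The promoters of *Cox6a1* (chr5:115348909-115349208, minus strand) and *Ndufa8* (chr2:36049289-36049588, minus strand) are shown, with the NRF1 letters in capitals. These were the most abundant of the matched members with the NRF1 letters. Members without a matched promoter, such as *Atp5a1*, were not searched.
Cox6a1: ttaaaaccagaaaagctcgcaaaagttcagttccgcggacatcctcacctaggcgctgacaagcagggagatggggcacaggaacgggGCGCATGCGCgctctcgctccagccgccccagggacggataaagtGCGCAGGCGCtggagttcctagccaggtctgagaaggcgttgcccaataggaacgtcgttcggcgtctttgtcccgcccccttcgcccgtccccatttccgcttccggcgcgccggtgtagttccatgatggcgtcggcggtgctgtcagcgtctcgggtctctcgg
Ndufa8: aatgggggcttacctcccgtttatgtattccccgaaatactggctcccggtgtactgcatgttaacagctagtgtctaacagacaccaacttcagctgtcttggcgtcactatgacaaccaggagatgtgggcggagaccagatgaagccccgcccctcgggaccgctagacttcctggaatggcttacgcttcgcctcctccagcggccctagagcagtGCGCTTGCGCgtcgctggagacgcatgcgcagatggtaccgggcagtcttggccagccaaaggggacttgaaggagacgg

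The machinery around the complexes was examined through 12 lists of genes. Of 207 tested genes in these lists 11 (5.31%) were called, 6 lower and 5 higher. None of the 16, 3, 5, 17 and 4 tested assembly or inhibitor factors of complexes I to V was called. Cytochrome c itself (*Cycs*), the carrier between complexes III and IV, had 30.7 ± 0.99 FPKM (SD, n = 5) in saline and 33.1 ± 1.30 FPKM in StcE samples. Its groups overlapped, and its log2 fold change of 0.10 had a limma adjusted p of 0.0524. None of 12 tested genes of coenzyme Q synthesis and none of 18 for the handling of mitochondrial RNA was called.

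The genes that copy, transcribe and translate the mitochondrial genome gave few calls. All 4 were higher, in lists where 5.56% (replication and transcription) and 3.90% (ribosome) of tested genes were called, beside 5.52% of all genes called higher and 11.9% called in either direction. *Polg*, the catalytic subunit of the mitochondrial DNA polymerase, was the 1 of 18 replication and transcription genes called, at 8.75 to 9.45 FPKM in saline and 9.97 to 10.3 FPKM in StcE samples. The groups did not overlap, and the log2 fold change was 0.13 with a limma adjusted p of 0.0133. *Tfam*, which packages mitochondrial DNA and starts its transcription, had a log2 fold change of 0.06 with an adjusted p of 0.243. Of 77 mitochondrial ribosomal proteins 3 were called, *Mrps9*, *Mrpl33* and *Mrps25*, with log2 fold changes of 0.11, 0.15 and 0.11. The call of *Polg* held with each sample left out in turn (limma adjusted p 0.0135 to 0.0313). Those of *Mrps9*, *Mrpl33* and *Mrps25* were lost in 6, 6 and 8 of these 10 fits, with adjusted p up to 0.0799.

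Of 18 tested regulators of respiratory genes 4 were called, 3 lower and 1 higher, and of 18 citric acid cycle genes 3 were called, each lower. With 11.9% of all genes called and 6.41% called lower, such small counts say nothing of the lists as a whole. *Epas1*, the hypoxia-inducible factor abundant in endothelium, had 56.6 to 66.8 FPKM in saline and 42.1 to 51.2 FPKM in StcE samples, a log2 fold change of -0.36 with a limma adjusted p of 0.00246. The fatty acid-sensing receptors *Pparg* and *Ppard* had log2 fold changes of -0.31 and -0.18, and neither had overlapping groups. *Myc* rose by 0.09 on the log2 scale, with groups that overlapped. *Nrf1* and *Gabpa*, genes of the factors named with the NRF1 and ETS motifs, had log2 fold changes of -0.01 and -0.03. Their intervals were -0.09 to 0.07 and -0.11 to 0.05, and binding to the promoters was not measured. The citric acid cycle genes called were *Pcx* (pyruvate carboxylase, which feeds the cycle), *Idh2* and *Suclg2*, at -0.23, -0.16 and -0.12 on the log2 scale, with groups that overlapped in each. With each sample left out in turn, the limma calls of *Epas1*, *Pparg*, *Ppard* and *Pcx* held in all 10 fits, while those of *Myc*, *Idh2* and *Suclg2* were lost in 8, 7 and 8 of them, with adjusted p up to 0.107.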

How the data were processed

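Bulk RNA-seq values of 10 bEnd.3 samples were analysed. The authors aligned read pairs to GRCm38 (mm10) and deposited FPKM per gene and sample. The submitters' processing notes name HISAT2 2.0.5, featureCounts 1.5.0-p3 and DESeq2 1.32.0. The table held 49898 rows, of which 22874 were empty. FPKM multiplied by GENCODE vM21 exon length gave whole fragments (within 0.05) for 97.8% of values above 0, from which depth was taken. Such counts cover counting error only. The symbol *Atp5o* stands for 2 annotated genes and was given the gene whose length made whole fragments.

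StcE was compared with saline by limma (version 3.58.1, R 4.3.3), using lmFit and eBayes with trend on log2(FPKM + 1), over the 11062 genes whose mean was 1 FPKM or more. There was no covariate, and p-values were adjusted by Benjamini-Hochberg. This scale understates changes of low genes. Exact permutation tests were two-sided. The procedure was checked on simulated data. Copies were searched with BLAST 2.17.0.

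Members and lists were chosen with earlier results of these data known. Named by rule were all mitochondrial members, members past the threshold, the 5 most abundant nuclear members, paralogue sets of *Cox4i*, *Cox6a*, *Cox6b*, *Cox7a*, *Cox8* and *Atp5g*, *Ndufa4*, 9 catalytic or cofactor-bearing subunits, and up to 4 called genes of each list. The result of 1 gene under the rule is not reported here. Others, such as *Atp5k*, *Ndufa3*, *Ndufc1*, *Ndufa12*, *Cycs*, *Tfam*, *Nrf1* and *Gabpa*, were chosen after their values were seen.

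Alternatives were a pseudocount of 0.1, a mean of at least 0.1 FPKM, no filter, 2 other scalings, eBayes without trend or robust, array weights, removal of length and GC trends, a replicate block and each sample left out. Limma's voom on recovered fragments, the 8 samples of the block without it, and sums of gene and copy were chosen after seeing the data.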

Additional observations from a re-analysis of the deposited data

Results flagged for a closer look

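A sample far from the other 4 of its group (Dixon's test, 95%) was found in 10 of 98 groups of named genes, where chance gives about 4.9. Among mitochondrial members, *mt-Co3* was 37.0 FPKM and *mt-Nd4l* 15.1 FPKM in saline replicate 1, *mt-Co2* was 36.2 FPKM in StcE replicate 3, and *mt-Atp8* was 0.417 FPKM in StcE replicate 1, the lowest of its group. *mt-Co2*, *mt-Co3* and *mt-Nd4l* each have a full-length copy on chromosome 1, where saline replicate 1 was not apart for *Gm28437* (12.3 FPKM) or *Gm10222* (7.38 FPKM). Among nuclear members, *Ndufv1* was 33.3 FPKM in saline replicate 2 and *Atp5g1* 21.3 FPKM in saline replicate 5, each the highest of its group. Below the level tested, *Cox7a1* was 0.799 FPKM in saline replicate 1 and *Cox6a2* was 0.125 FPKM in StcE replicate 1, where the other StcE samples were at 0. The values of *mt-Atp8*, *Cox7a1* and *Cox6a2* came from 1 to 7, 4 to 13 and 0 to 2 fragments per sample. With so few fragments the chance figure may not hold, and such gaps may be counting error. In the surrounding lists, *Polg* was 10.3 FPKM in StcE replicate 6 and *Mrps9* was 6.36 FPKM in saline replicate 3.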

How the results depend on the processing

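The median log2 fold change ranged from -0.03 to 0.01 for nuclear members (0.0013 with the replicate block) and from 0.03 (length and GC trends removed, against 0.07 as reported) to 0.10 (without StcE replicate 5) for mitochondrial ones. These moves were below the SD of single samples within a group, at 0.043 for nuclear and 0.058 for mitochondrial members. That SD is larger than the error of a difference between groups of 5, so it does not show the moves to be small. Named members kept their side of the threshold in 698 of 724 comparisons, with 8 gains and 18 losses of a call, and named genes of the surrounding lists lost theirs in 66 of 241. The losses among members were all of *mt-Atp6*, called in 5 of 23 fits, with log2 fold changes of 0.24 to 0.35 and adjusted p of 0.0237 to 0.278. Its count of 1 became 0 with a mean of at least 0.1 FPKM, no filter, eBayes without trend or robust, array weights, and length and GC trends removed, and 3 (*mt-Atp6*, *mt-Co1*, *mt-Co2*) with voom. Leaving out 1 sample gave 0 to 1 mitochondrial calls higher, the 1 being *mt-Co2* without StcE replicate 3 (adjusted p 0.0477). It gave 0 to 1 nuclear calls lower, *Ndufc1* without saline replicate 4 and *Sdha* without saline replicate 5, and 0 to 1 higher, *Atp5g1* without saline replicate 5. With length and GC trends removed 2 nuclear members were lower, *Sdha* and *Ndufc1*. Over all genes, 1320 calls became 801 with no filter and 793 to 1255 with 1 sample left out.

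No pairing of samples by the replicate numbers 1, 2, 3 and 5 was seen (correlations of -0.10, -0.02, -0.03 and 0.05, and no saline sample was closest to its own number). So few correlations cannot exclude a pairing, and the labels do not state any. The replicate block left 0 mitochondrial calls and 349 calls over all genes, and the same 8 samples without it 0 and 885. Among tested members depth was lowest for *mt-Nd3*, at 16 to 35 fragments per sample.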
